A study of Danio rerio with 2 samples.

Results

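The 10 genes described here encode enzymes of glycolysis in zebrafish, *hk1*, *gpia*, *gpib*, *aldoaa*, *tpi1a*, *tpi1b*, *gapdh*, *gapdhs*, *pgk1* and *ldha*. Some of them are paralogs for the same step. They were chosen by gene name and are 10 of the 32105 genes of the deposited table. RNA was sequenced from cells that carry a gata1-EGFP reporter, sorted at 22 hours post fertilization from *add1* knockout embryos and from their siblings, which the labels give the genotype wildtype. The reporter marks cells in which the *gata1* promoter is active, and the labels name the sorted cells erythroblasts. There was 1 library of each genotype. No label gives the *add1* allele or the number of embryos behind each library. With 1 library per genotype the differences below have no replicate check and no p-value, and genotype and preparation cannot be told apart.

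Glycolysis splits glucose into pyruvate and yields ATP and NADH without oxygen. Hexokinase, phosphofructokinase and pyruvate kinase catalyse its irreversible steps, and the other enzymes run near equilibrium in most cells. Mammalian red cells have no mitochondria and live on this pathway, and inherited defects of several of its enzymes cause hemolytic anemia in humans. Zebrafish red cells keep a nucleus and mitochondria. Many steps have several genes in zebrafish, in part from the genome duplication of bony fish, so that a cell can use one copy, the other or both.

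The libraries held 5956344 counts (mutant) and 6157792 counts (sibling). *add1* itself had 18 counts in mutant cells and 1166 in sibling cells, the direction its label calls for. Levels are given as CPM, counts scaled to a library size that is the total multiplied by a TMM factor, 1.07 (mutant) or 0.932 (sibling). Against plain library totals this scaling lowers every CPM ratio of mutant to sibling by 0.20 on the log2 scale, and less for low genes once 1 is added, and the median log2 ratio of the 9625 measured genes was -0.08 with TMM and 0.12 with plain totals. Genes at 10 CPM or more in either library are called measured, and a measured gene counts as called where CPM + 1 differs by 2-fold or more. Each fold printed below leaves out that added 1 and is followed by the exact 95% interval for counts, which covers counting error and not the spread between embryos. PCR copies could not be told from separate molecules, since there are no molecular identifiers, and the intervals leave this out. In RNA from a mixed sort, fewer cells of a type and less RNA per cell cannot be told apart.

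The 10 genes as a group were at much the same level in both libraries, while the paralogs *gapdh* and *gapdhs* went opposite ways. *gapdh* and *hk1* were higher in the mutant library, *gapdhs* and *pgk1* were lower, and *gpia*, *aldoaa*, *tpi1b* and *ldha* stood close to the sibling level. Of the 10 genes, 8 were measured, and *gpib* and *tpi1a* stayed under the minimum in both libraries. None of the 8 was called, in either direction. Among all measured genes 7.05% were called higher and 4.52% lower, so that 0 of 8 is near what that background gives. The split over all genes was 679 higher and 435 lower, and it was 981 and 248 with plain totals, 718 and 200 by FPKM, and 921 and 309 when globin, ribosomal protein and mitochondrially encoded genes were left out of the totals. The median log2 ratio of the 8 was 0.01, with a range from -0.59 to 0.57. The summed counts of all 10 were 0.142% of the mutant and 0.117% of the sibling library, a fold of 1.06 (1.02 to 1.09) with TMM scaling and 1.22 with plain totals. In the same libraries the summed level of erythroid markers had a fold of 0.415 (0.413 to 0.417) and that of skeletal muscle markers a fold of 2.39 (2.36 to 2.42), and their part in the values below was not tested.

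**Figure D1:**
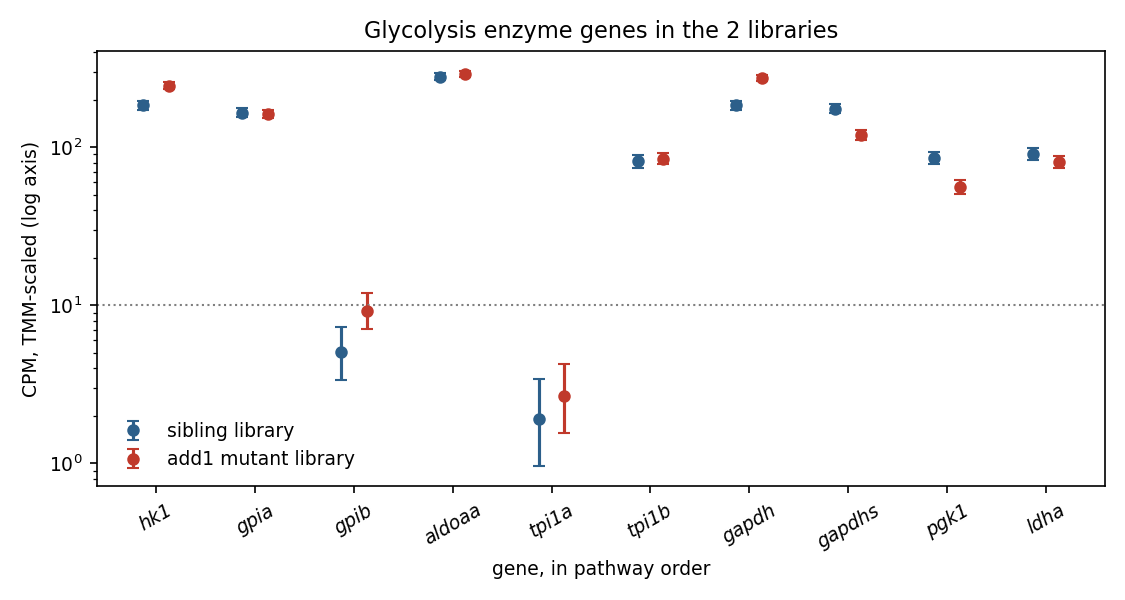
CPM of the 10 enzyme genes on a log axis, in pathway order, in the sibling (blue) and the mutant library (red); bars are exact 95% counting intervals, each point is 1 library, and the dotted line is the minimum of 10 CPM. *gapdh* and *hk1* lie higher in the mutant library, *gapdhs* and *pgk1* lower, and *gpib* and *tpi1a* lie under the minimum.

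*hk1* encodes hexokinase 1, which traps glucose in the cell as glucose 6-phosphate and is the hexokinase of mature red cells in mammals. The gene (ENSDARG00000039452, chromosome 13, 22842438 to 22877363, GRCz10) had 1562 counts in mutant cells and 1055 in sibling cells. These were 245 and 184 CPM, so that the mutant library was 1.33-fold higher (1.23 to 1.44). The ratio was above that of 79.9% of measured genes. With plain totals the fold was 1.53 (1.41 to 1.66). *hk2*, the hexokinase of insulin-sensitive tissues in mammals, had 409 and 293 counts and was 1.25-fold higher (1.08 to 1.46). The balance of the pair differed by less than counting error (odds ratio 1.06, 0.892 to 1.26), and *hk1* made up 79.2% (77.4 to 81.0) of the counts of the pair in mutant cells and 78.3% (75.96 to 80.4) in sibling cells. *hkdc1*, a hexokinase gene that lies 9684 bases from *hk1*, and *gck*, glucokinase, had at most 27 counts in a library.

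*gpia* and *gpib* encode glucose-6-phosphate isomerase, which turns glucose 6-phosphate into fructose 6-phosphate. *gpia* (ENSDARG00000012987, chromosome 25, 35408675 to 35434057) had 1039 counts in mutant cells and 952 in sibling cells. At 163 and 166 CPM the interval of its fold held 1 (0.981, 0.897 to 1.07). With plain totals its sign turned, to 1.13-fold higher (1.03 to 1.23). *gpib* (ENSDARG00000103826, chromosome 18, 512830 to 1011132) had 59 and 29 counts, or 9.24 and 5.05 CPM, 1.83-fold higher (1.15 to 2.96) from few reads. With plain totals the fold of *gpib* was 2.10 (1.33 to 3.40). Nearly all counts of this step came from *gpia*, 94.6% (93.1 to 95.9) in mutant cells and 97.04% (95.8 to 98.0) in sibling cells. The odds of a read being *gpia* were 1.86-fold lower (1.16 to 3.04) in the mutant library. The span given for *gpib* is 498303 bases long, holds 9 other genes of the table and ends 3757 bases before *pkma*. No source used here says whether the counting used strand, so reads of genes in that span may have been divided in ways that cannot be traced.

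*aldoaa* encodes an aldolase A, which cleaves fructose 1,6-bisphosphate into its 3-carbon products. In mammals aldolase A is the form of muscle and red cells. *aldoaa* (ENSDARG00000011665, chromosome 3, 39425141 to 39435194) had 1866 counts in mutant cells and 1608 in sibling cells, or 292 and 280 CPM. Its fold of 1.04 (0.975 to 1.12) had an interval that held 1, and with plain totals it was 1.20 (1.12 to 1.28). Its paralog *aldoab* went from 1268 counts in the sibling to 2806 in the mutant library, 1.99-fold higher (1.86 to 2.13), just under the rule for a call. With plain totals *aldoab* was 2.29-fold higher and was called. Accordingly *aldoaa* supplied 55.9% (54.1 to 57.7) of the counts of the pair in the sibling library and 39.9% (38.5 to 41.4) in the mutant library. By FPKM, which divide by gene length, its part was 48.9% in the sibling and 33.4% in the mutant library. The odds of a read of this pair being *aldoaa* were 1.91-fold lower (1.73 to 2.10) in the mutant library. Such odds do not depend on library scaling.

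*tpi1b* and *tpi1a* encode triosephosphate isomerase, which interconverts the 3-carbon products of aldolase. *tpi1b* (ENSDARG00000040988, chromosome 16, 12345335 to 12364092) had 542 counts in mutant cells and 468 in sibling cells, or 84.8 and 81.5 CPM. The fold was 1.04 (0.918 to 1.18), and 1.20 (1.06 to 1.36) with plain totals. *tpi1a* (ENSDARG00000025012, chromosome 19, 5177732 to 5186827) had 17 and 11 counts, and its fold of 1.39 (0.614 to 3.28) was not distinguishable from 1 at this depth. *tpi1b* held 96.96% (95.2 to 98.2) of the counts of the pair in mutant cells and 97.7% (95.9 to 98.8) in sibling cells. The odds ratio between libraries had an interval on both sides of 1 (0.749, 0.314 to 1.72). The end of *lpcat3* overlaps the start of *tpi1b* in the table.

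*gapdh* and *gapdhs* encode glyceraldehyde-3-phosphate dehydrogenase, which makes the NADH of the pathway. *gapdhs* carries the name of the sperm enzyme of mammals. These paralogs went opposite ways. *gapdh* (ENSDARG00000043457, chromosome 16, 17284687 to 17292143) had 1746 counts in mutant cells and 1056 in sibling cells, or 273 and 184 CPM, 1.49-fold higher (1.38 to 1.61) in the mutant library. *gapdhs* (ENSDARG00000039914, chromosome 16, 45077926 to 45103166) had 763 and 1006 counts, or 119 and 175 CPM, 1.47-fold lower (1.33 to 1.61). Both kept their direction with plain totals, with folds of 1.71 (1.58 to 1.85) and 0.784 (0.713 to 0.862). The ratio of *gapdh* was above that of 84.8% of measured genes, and that of *gapdhs* above 16.8%.

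In the sibling library the pair was used almost evenly by counts, with *gapdh* at 51.2% (49.0 to 53.4). In the mutant library *gapdh* had 69.6% (67.7 to 71.4) of the counts of the pair. The odds of a read being *gapdh* were 2.18-fold higher (1.93 to 2.47) in the mutant library. Yet the sum over both genes, 2509 and 2062 counts, differed by a fold of only 1.09 (1.03 to 1.16), or 1.26 with plain totals. The deposited FPKM, which divide by gene length, give *gapdh* a smaller part, 35.3% in sibling cells and 54.3% in mutant cells, because the length behind the FPKM is 1.93-fold longer for *gapdh* than for *gapdhs*. By counts and by FPKM alike the part of *gapdh* was larger in the mutant library. Whether reads were shared between these like sequences cannot be traced in the table.

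*pgk1* encodes phosphoglycerate kinase, which makes the first ATP of the pathway and is the single gene listed for its step. It lies on chromosome 21, as *add1* does, at 37761018 to 37776965 (ENSDARG00000054191), 35718843 bases beyond the end of *add1*. It had 360 counts in mutant cells and 490 in sibling cells, or 56.4 and 85.3 CPM, 1.51-fold lower (1.32 to 1.74) in the mutant library. Of the 10 genes it had the lowest ratio, above that of 14.9% of measured genes, and with plain totals its fold was 0.760 (0.661 to 0.872).

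*ldha* encodes lactate dehydrogenase A, which turns pyruvate into lactate and gives back NAD for *gapdh*. It (ENSDARG00000101251, chromosome 25, 25028201 to 25099874) had 514 counts in mutant cells and 520 in sibling cells, or 80.5 and 90.6 CPM. The fold of 0.888 (0.785 to 1.01) had an interval that held 1, and with plain totals it was 1.02 (0.903 to 1.16). *ldha* was the minor gene of its pair with *ldhba* in both libraries. *ldhba*, which encodes the B subunit found in heart and red cells of mammals, had 1377 and 1432 counts, and *ldha* held 27.2% (25.2 to 29.2) of the counts of this pair in mutant cells and 26.6% (24.7 to 28.7) in sibling cells. The odds ratio between libraries was 1.03 (0.889 to 1.19), so no difference in the use of this pair was detectable. The span of *ldha* holds *tsg101a*, with 322 and 276 counts.

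Pairs of the most counted genes were formed for 9 steps, and none for phosphofructokinase, which also has several genes. Over the 9 pairs the interval of the odds ratio held 1 for 3, those of *hk1*, *tpi1b* and *ldha*, and excluded 1 for 6. Beside the *gapdh*, *aldoaa* and *gpia* pairs these were *pgam2* with *pgam1a*, *eno3* with *eno1a*, and *pkma* with *pkmb*. By counts *pgam2* made up 46.6% (40.0 to 53.2) of its pair in sibling cells and 72.4% (67.9 to 76.6) in mutant cells. By FPKM, which divide by gene length, *pgam2* was the larger part in both, 65.6% in sibling cells and 85.2% in mutant cells. *eno3* made up 53.4% (49.5 to 57.2) of the counts of its pair in sibling cells and 63.7% (60.6 to 66.8) in mutant cells. Its parts by FPKM were 59.1% and 68.9%. No spread between embryos enters these intervals, the pairs were chosen with their values seen, and no share over other pairs of genes was computed to set beside the 6.

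**Figure D2:**
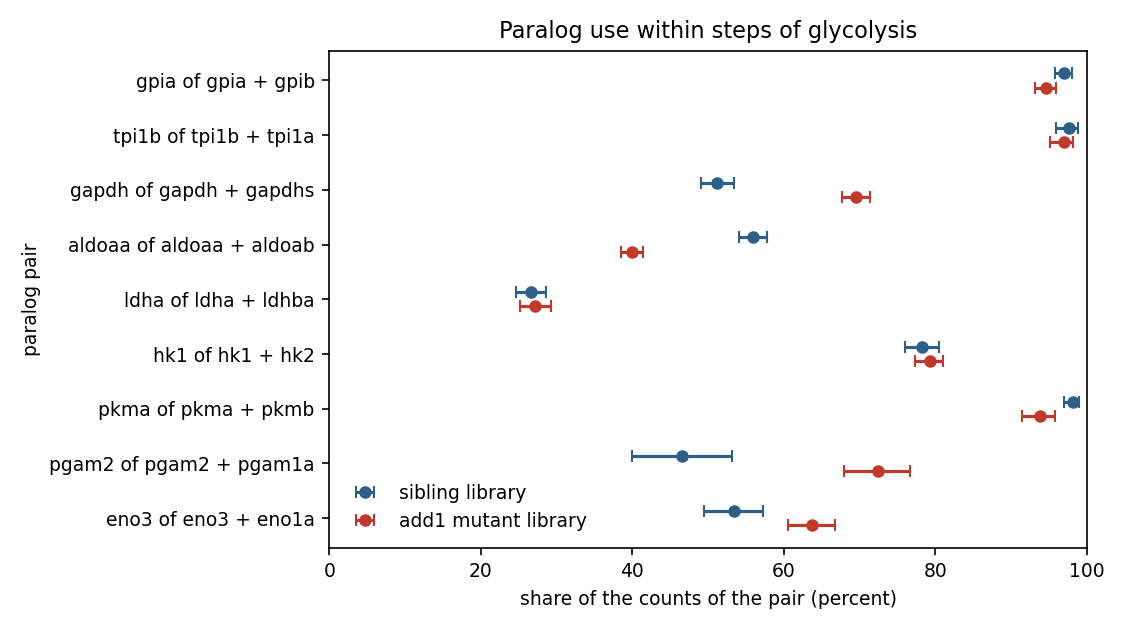
Share of the first-named gene in the counts of 9 paralog pairs, in percent, in the sibling (blue) and the mutant library (red); bars are exact 95% binomial intervals, each point is 1 library. Shares of counts are not corrected for gene length. The *gapdh* share moved from 51.2 to 69.6% and the *aldoaa* share from 55.9 to 39.9%. The *hk1*, *tpi1b*, *ldha* and *gpia* shares had overlapping intervals, though the odds ratio interval of the *gpia* pair excluded 1.

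Intervals of the fold that exclude 1 were common at this depth. With TMM scaling 26.1% of measured genes had an interval above 1 and 36.0% one below 1. Of the 8 measured enzyme genes 2 were above (*hk1* and *gapdh*), 2 below (*gapdhs* and *pgk1*) and 4 held 1. These shares were near that background, so the TMM intervals alone say little about these enzymes. With plain totals the intervals of *gpia* (1.03 to 1.23), *aldoaa* (1.12 to 1.28) and *tpi1b* (1.06 to 1.36) also lay above 1. No background share of intervals was computed with plain totals.

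Between genes, levels were compared by FPKM, which are scaled to gene length and library size. In the sibling library *aldoaa* (124 FPKM) and *gapdhs* (113) came first, and their counting intervals overlapped. *gapdh* (61.3) and *gpia* (56.5) followed, also with overlapping intervals, then *hk1* (40.2). *pgk1* (32.1) and *ldha* (30.2) overlapped, and *tpi1b* (24.7) lay below them. *gpib* (1.95) and *tpi1a* (0.989) came last. In the mutant library the order was *aldoaa* (148 FPKM), *gapdh* (105), *gapdhs* (88.2), *gpia* (63.8), *hk1* (61.6), *ldha* (30.9), *tpi1b* (29.6), *pgk1* (24.4), *gpib* (4.09) and *tpi1a* (1.58). There *gpia* overlapped *hk1* and *ldha* overlapped *tpi1b*. Thus *gapdh* and *gapdhs* changed places between the libraries. *pgk1*, level with *ldha* in the sibling library within counting error, lay below *tpi1b* in the mutant library. Outside the 10, *ldhba* stood at 142 FPKM in both libraries, and *aldoab* at 129 FPKM in sibling and 295 in mutant cells.

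The wider pathway list held 36 genes of 11 steps, of which 20 were measured. Of these *pgam2* was called higher and *pfkma* lower, 1 of 20 in each direction, near the background of 7.05% higher and 4.52% lower. The median log2 ratio was -0.10, against -0.08 for all measured genes. Without the 10 genes above the median was -0.22 over 12 genes, and -0.02 with plain totals. The summed level of all other pathway genes, measured or not, had a fold of 1.16 (1.12 to 1.20), or 1.33 with plain totals. *pgam2* encodes a phosphoglycerate mutase, which moves the phosphate of 3-phosphoglycerate, and had 307 counts in mutant cells and 108 in sibling cells, 2.55-fold higher (2.05 to 3.21). Its span lies within that of *rpl17*, so its reads are uncertain. *pfkma* encodes a phosphofructokinase, the committed step of glycolysis, and had 13 and 78 counts, 6.68-fold lower (3.69 to 13.1). *pkma*, which encodes a pyruvate kinase, had 461 and 798 counts and was 1.93-fold lower (1.72 to 2.16). *eno3*, an enolase gene, had 594 and 355 counts and was 1.504-fold higher (1.32 to 1.72), but its span also lies within those of other genes.

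*PKLR*, named after its values were seen, encodes the pyruvate kinase of liver and red cells in humans. It had 0 counts in mutant cells and 1 in sibling cells, where 0 counts allow up to 0.470 CPM by the floor of 3 counts. By counts *pkma* carried nearly all of this step, 98.2% (96.98 to 99.0) of its pair with *pkmb* in sibling cells and 93.9% (91.4 to 95.8) in mutant cells.

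**Figure D3:**
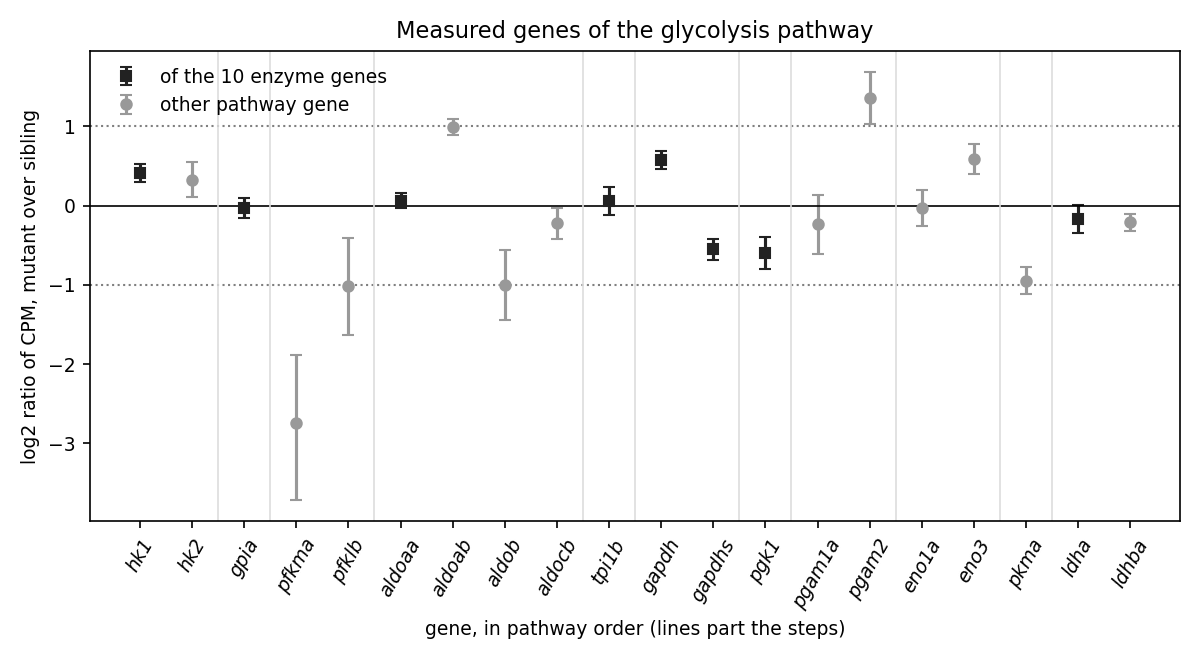
Log2 ratio of CPM, mutant over sibling, for the 20 measured genes of the pathway in order of the steps; squares are genes of the 10, circles other genes, bars exact 95% counting intervals, dotted lines 2-fold. Ratios are drawn without the added 1 used for calls, so *pfklb* sits at the lower line without a call. *gapdh* and *gapdhs* lie on opposite sides of 0.

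Summed over all genes of a step, the pathway did not move as one. With TMM scaling the sums of 5 steps had an interval above 1, 4 one below 1, and 2 held 1. Those 2 were glucose-6-phosphate isomerase and triosephosphate isomerase, whose folds with plain totals were 1.16 and 1.21, with no interval computed. No share over sums of other genes was computed to set beside these counts of steps. Phosphoglycerate mutase was 1.56-fold higher (1.33 to 1.83), aldolase 1.35-fold (1.29 to 1.41), hexokinase 1.32-fold (1.23 to 1.41) and enolase 1.26-fold (1.14 to 1.38), while glyceraldehyde-3-phosphate dehydrogenase was 1.09-fold higher as given above. Phosphofructokinase was 1.87-fold lower (1.502 to 2.32), on 136 and 228 counts over 6 genes, of which 2 were measured. Without *pfkma* its sum, 123 and 150 counts, was 1.36-fold lower (1.06 to 1.74), and with plain totals the interval of that fold, 0.848 (0.662 to 1.08), held 1. Its genes *pfkpa* and *pfkpb*, named after their values were seen, encode platelet-type forms and stayed under the minimum in both libraries. They went opposite ways. *pfkpa* had 49 and 24 counts, 1.83-fold higher (1.104 to 3.13), and *pfkpb* 8 and 25 counts, 3.48-fold lower (1.52 to 8.92). Pyruvate kinase was 1.84-fold lower (1.65 to 2.07) and phosphoglycerate kinase 1.51-fold lower. Lactate dehydrogenase was 1.14-fold lower (1.07 to 1.22), but with plain totals its fold was 1.01. Of the irreversible steps, hexokinase was thus higher and phosphofructokinase and pyruvate kinase were lower, with both scalings when all genes of a step are summed. Phosphofructokinase had the lowest sum of all steps, 7.90 FPKM in sibling cells and 4.59 in mutant cells, and aldolase the highest, 294 and 481 FPKM.

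**Figure D4:**
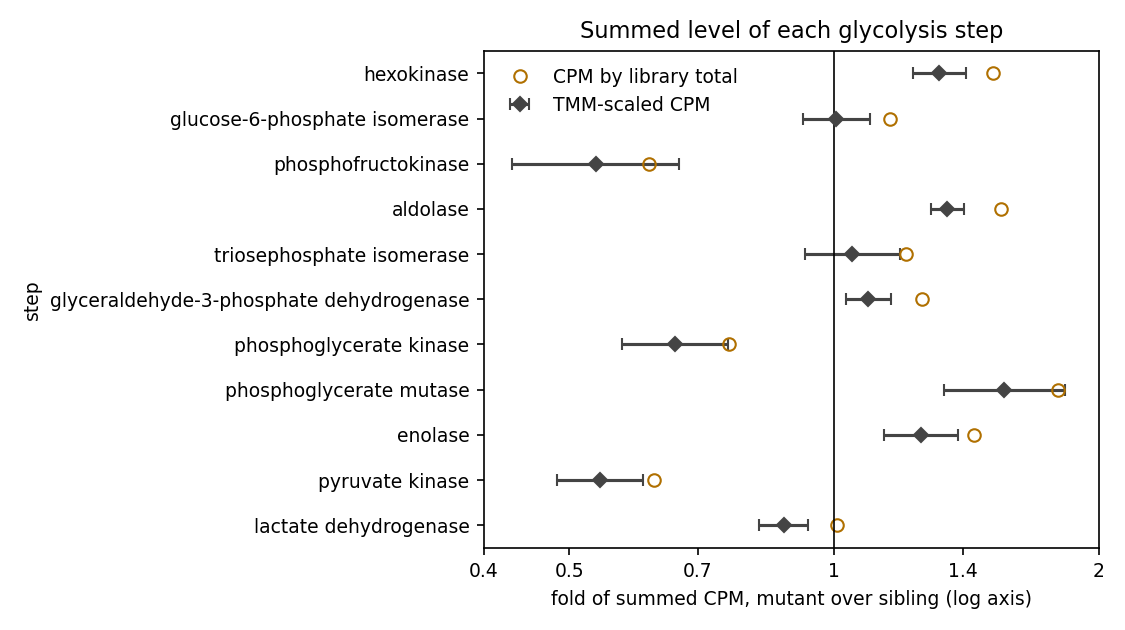
Fold of summed CPM, mutant over sibling, for the 11 steps on a log axis; diamonds are TMM-scaled with exact 95% counting intervals, open circles are by plain library totals. Phosphofructokinase, phosphoglycerate kinase and pyruvate kinase lie below 1 with both scalings, and lactate dehydrogenase crosses 1.

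Over 4 lists of related genes 2 of 31 measured genes were called higher, or 6.45%, and 0 lower, against a background of 7.05% and 4.52%. Of the glucose and lactate transporter list 6 of 11 genes were measured and 0 called (median log2 ratio 0.01). *slc2a1a*, a Glut1 glucose transporter gene, was at 30.5 against 17.1 CPM, 1.79-fold higher (1.396 to 2.30). *slc16a1b*, a lactate transporter gene, was at 19.7 against 26.5 CPM, *slc2a11b* at 10.2 against 5.92 CPM and *slc2a3b* at 7.20 against 10.6 CPM. Of the regulators of glycolysis and of pyruvate entry into mitochondria, 16 of 26 were measured, 1 was called higher and 0 lower (median 0.04). That one was *pdk2a*, a kinase that turns off pyruvate dehydrogenase, at 17.7 against 7.14 CPM, 2.48-fold higher (1.72 to 3.63). Its paralog *pdk2b* was at 93.3 against 60.4 CPM, and *pdha1a*, a subunit of the pyruvate dehydrogenase they act on, at 173 against 265 CPM. Other measured genes of the kinases and the complex, named after their values were seen, did not share these directions throughout. *pdk1* was at 7.98 against 11.5 CPM and *pdk4* at 17.7 against 20.2 CPM. *pdhb* was at 124 against 119 CPM, *dlat* at 242 against 263 CPM and *pdhx* at 40.2 against 40.4 CPM. *pfkfb3*, one of the genes of the enzyme that makes the activator of phosphofructokinase, was at 18.3 against 12.5 CPM. Of the same family, *pfkfb4b* was at 182 against 156 CPM and *pfkfb4a* at 13.5 against 11.1 CPM, named after their values were seen.

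Of the pentose phosphate pathway, which branches off at glucose 6-phosphate, 7 of 8 genes were measured and 0 called (median 0.07). *taldo1*, the transaldolase gene, was at 153 against 195 CPM, *rpe* at 125 against 97.5 CPM and *pgls* at 13.8 against 11.5 CPM. Of the list of gluconeogenesis and bisphosphoglycerate genes 2 of 12 were measured, with 1 called higher. *bpgm*, which makes 2,3-bisphosphoglycerate from a glycolytic intermediate and in mammals tunes the oxygen affinity of hemoglobin, was at 21.1 against 9.58 CPM, 2.21-fold higher (1.60 to 3.08). *pcxa*, a pyruvate carboxylase gene, was at 40.9 against 60.4 CPM.

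Markers of cell types differed between the libraries too. All 14 erythroid markers were measured and lower in the mutant library, 9 called, with *hbbe1.1* at 15853 against 37972 CPM and *hbbe3* at 5535 against 12277 CPM, so the defining red cell genes were abundant in both libraries. Of 28 skeletal muscle markers 25 were measured, 12 called higher and 1 lower, and their sum was 14447 against 6046 CPM, with log2 ratios from -1.03 to 2.18, *actc1b* at 3379 against 1532 CPM and *smyhc1* at 2562 against 580 CPM. Of the 25 measured muscle markers 18 had an interval of the fold above 1 and 5 one below 1. None of them was at 0 in both libraries. Hatching gland and notochord markers (3454 against 495 CPM in sum, 10 of 11 measured called higher, *he1a* at 914 against 63.9 CPM), neural markers (378 against 186 CPM, 3 of 7, *stmn1b* at 86.6 against 28.4 CPM) and epidermis markers (2431 against 1723 CPM, 4 of 9, *krt4* at 1967 against 1437 CPM) were higher as well. Endothelium markers stood at 208 against 172 CPM, with 0 of 6 called and *fli1a* at 112 against 79.8 CPM. Myeloid markers were mostly lower, at 879 against 1244 CPM in sum, with 5 of 9 called lower and 0 higher. Called lower, and named after their values were seen, were *lyz* at 38.7 against 206 CPM and *il1b* at 11.3 against 66.0 CPM. So were *mpx* (19.9 against 63.9 CPM), *npsn* (3.13 against 16.4 CPM) and *coro1a* (115 against 242 CPM). The intervals of myeloid markers lay below 1 for 7, among them *lcp1* at 265 against 305 CPM. With plain totals the interval of *lcp1* held 1 (0.936 to 1.07). Intervals lay above 1 for 2, *cebpa* at 249 against 163 CPM and, named after its values were seen, *spi1b* at 107 against 71.9 CPM. The part of each of these lists in the ratios was not tested.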

How the data were processed

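Sorted gata1-EGFP-positive cells gave RNA by the SMART-Seq HT kit for BGISEQ-500 sequencing, per the labels. Per the submitters' processing notes the build was GRCz10. No source used here names the aligner, counter, strand setting or filters. Per the file headers, the authors' table gives raw counts and FPKM of each gene, for 1 library per genotype. The FPKM follow the count totals of the table, whose ratio (sibling over mutant) is 1.03.

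Counts were scaled by library totals and TMM factors (edgeR 4.0.16, R 4.3.3, used for scaling only). 10 CPM stand for 63.9 mutant and 57.4 sibling counts. Intervals are exact (Clopper-Pearson, SciPy 1.17.1), and odds ratios conditional exact. No p-value was computed. The scripts were tested on simulated counts. Alternatives were plain totals, median-of-ratios factors (DESeq2 1.42.0), totals without globin, mitochondrially encoded and ribosomal protein genes, an added 0.1 or 5 in place of 1, a minimum of 1 or 50 CPM, a 1.5-fold rule and FPKM.

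The 10 genes, the lists (197 symbols, 4 not found, 1 matched by ignoring capitals) and the rules were chosen with earlier results of these data known. Named genes are the 10, *add1*, called pathway genes, the most abundant gene of each step by sibling FPKM, up to 4 genes with the largest ratio of each related list and up to 2 of the most abundant of each marker list. Paralogs named beside the 10, the pairs and the step sums were chosen after values were seen. One gene that the rule names is not reported here.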

Additional observations from a re-analysis of the deposited data

How the results depend on the processing

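No paired analysis was possible because there was 1 library per genotype. None of the 10 genes passed 2-fold among measured genes under any alternative run, on the scale with the added number. Without it *gpib* was 2.10-fold higher with plain totals, where it stayed under the minimum. Of 72 recomputed single-gene log2 ratios (the 10 genes, *pgam2* and *pfkma*), 49 stayed inside the counting interval and 23 left it. With plain totals *gpia* and *ldha* changed sign, and the median of the 8 genes went from 0.01 to 0.21. It was 0.21 with FPKM and 0.15 with totals without globin, mitochondrially encoded and ribosomal protein genes, or 0.19 over 9 genes there, since *gpib* passed the minimum. Other totals and FPKM also change the weight of the added 1. The 679 genes called higher were 421 with a pseudocount of 5, 1787 with a minimum of 1 CPM, 193 with 50 CPM and 1414 at 1.5-fold. The 435 called lower were 248 with plain totals, 200 with FPKM, 896 with 1 CPM, 222 with 50 CPM and 1463 at 1.5-fold. Of the pathway list 2 genes in place of 1 were higher with plain totals, the reduced totals, FPKM or 1.5-fold, where *aldoab* joined *pgam2*, or with 1 CPM, where *ldhbb* did, and 0 with 50 CPM. Of that list 3 in place of 1 were lower with 1 CPM, 5 at 1.5-fold and 0 with 50 CPM. *pgk1*, alone of the 10 genes, was called at 1.5-fold, as lower. At 1.5-fold 1414 of all 9625 measured genes were higher and 1463 lower, beside 2 and 5 of the 20 measured pathway genes. By FPKM the *gapdh* share was 54.3% in mutant cells and 35.3% in sibling cells, and the *tpi1b* share in the mutant library 94.9%. FPKM divide by gene length. The phosphofructokinase sum without *pfkma* was an alternative chosen after seeing the data. Depth limits *gpib* and *tpi1a*, with at most 59 and 17 counts.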
